A study of Homo sapiens with 4 samples.

Results

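The BTG and TOB genes encode a family of small antiproliferative proteins, and 5 of them were described here, BTG1, BTG2, BTG3, TOB1 and TOB2. They were taken by gene symbol from a table of 29833 genes, and all 5 were among the 12750 genes with a mean level of at least 1 FPKM, which sets reads per kilobase of gene against the library's total. The members were chosen by family name, with the differences of the combined library in log2(FPKM + 1) already known, so their levels and differences are descriptions and carry no test. The cells were Reh-6-MPR, a single line made resistant to 6-mercaptopurine (6-MP) from the established human line Reh, which stems from a B-cell acute lymphoblastic leukemia (B-ALL). RNA was taken after 48 h with PBS (the vehicle), with 4 mM histidine, with 1.0 μg/mL 6-MP, or with both agents together, called the combined library below. The study asked how histidine alters the response of resistant cells to 6-MP. There was 1 library for each treatment, so the spread between replicates is not known and no test was made.

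All 5 proteins share an N-terminal domain by which they bind CNOT7 and CNOT8. These are paralogous catalytic subunits of the CCR4-NOT complex, which shortens the poly(A) tails of mRNAs. TOB1 and TOB2 also carry motifs for PABPC1, the main cytoplasmic poly(A)-binding protein, and so bring the deadenylase to mRNAs. BTG1 and BTG2 are short proteins that also bind PRMT1, the main arginine methyltransferase of the cell. The family is known for slowing the passage from G1 to S phase and for keeping lymphocytes quiescent. BTG2 is a textbook target of p53, and BTG1 is often deleted in childhood B-ALL.

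Library totals behind the values ran from 12899122 to 15486376 reads. The combined library was the shallowest and yet held the most genes above 0, 25443 against 23635 to 23978 in the other 3. Of the B-lineage markers, 12 of 13 had a row, and all 12 were above 1 FPKM in the vehicle library. They included PAX5 at 55.9 to 74.4 FPKM and DNTT at 497 to 625 FPKM. Erythroid markers summed to at most 0.492 FPKM, and the only stromal marker with a row, COL1A1, ran from 0.869 to 2.04 FPKM. Myeloid markers (5 of 8 with a row) summed to 27.4 to 31.4 FPKM in the other 3 libraries and to 44.7 FPKM in the combined library, nearly all of it MPO. T-cell markers (3 of 7 with a row) summed to 11.7 to 12.3 FPKM and to 32.5 FPKM in the combined library, nearly all of it TRAC, with CD8A listed at 0 in vehicle and histidine. The myeloid, T-cell and stromal sums thus moved in the same library as BTG2, and their part in the results was not tested. The RNA is from whole cultures, so fewer cells with a transcript and less of it per cell cannot be told apart.

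The promoter windows of the 3 genes with the largest differences in the combined library, and of TOB2, which was lower there, are shown for comparison. They come from RefSeq on GRCh38.p14 and run from 250 bases before to 50 bases after a gene's start. All 5 genes matched an entry, and TOB1 had a pair of windows, of which the downstream one is given. Its start site lies 1624 bases from the deposited start of the gene. The upstream window lies at a distance of 0 and held no match, so the matches shown for TOB1 depend on this choice. BTG3 was also higher in the combined library, and its window, which is not printed, held no match. Each line gives the gene's strand 5′ to 3′, and capitals mark every match to the 7 motifs searched on both strands.
BTG2 (chr1:203305269-203305568, plus strand): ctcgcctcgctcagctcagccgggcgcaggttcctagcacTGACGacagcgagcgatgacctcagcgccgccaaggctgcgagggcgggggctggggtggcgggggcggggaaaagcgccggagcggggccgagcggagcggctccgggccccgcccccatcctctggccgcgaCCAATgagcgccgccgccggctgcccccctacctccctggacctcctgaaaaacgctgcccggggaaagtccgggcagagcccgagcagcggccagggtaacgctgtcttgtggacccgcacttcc
BTG1 (chr12:92145797-92146096, minus strand): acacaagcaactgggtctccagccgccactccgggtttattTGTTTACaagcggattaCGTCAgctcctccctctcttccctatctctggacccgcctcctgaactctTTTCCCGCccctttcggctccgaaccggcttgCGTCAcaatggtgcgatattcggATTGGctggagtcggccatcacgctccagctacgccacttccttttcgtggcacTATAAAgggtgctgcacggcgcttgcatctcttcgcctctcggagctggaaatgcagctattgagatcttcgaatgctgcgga
TOB1 (chr17:50866305-50866604, minus strand): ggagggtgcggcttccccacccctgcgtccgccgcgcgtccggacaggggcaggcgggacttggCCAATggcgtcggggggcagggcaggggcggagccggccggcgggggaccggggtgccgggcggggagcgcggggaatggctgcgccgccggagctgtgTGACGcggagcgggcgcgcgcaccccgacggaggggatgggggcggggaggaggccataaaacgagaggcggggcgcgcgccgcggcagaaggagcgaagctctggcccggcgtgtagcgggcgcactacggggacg
TOB2 (chr22:41446752-41447051, minus strand): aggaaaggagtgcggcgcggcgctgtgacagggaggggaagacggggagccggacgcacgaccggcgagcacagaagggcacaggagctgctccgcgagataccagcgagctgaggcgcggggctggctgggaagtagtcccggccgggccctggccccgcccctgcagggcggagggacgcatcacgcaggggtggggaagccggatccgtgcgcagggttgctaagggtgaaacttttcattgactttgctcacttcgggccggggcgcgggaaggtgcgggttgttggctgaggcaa

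The motifs searched were the CCAAT box (CCAAT), the CRE half-site (TGACG), the TATA box (TATAAA), the FOXO core (GTAAACA), the E-box (CACGTG), an E2F site (TTTCCCGC) and the p53 half-site. BTG2 held a CRE half-site at −210 and a CCAAT box at −76 from the start. BTG1 held 6 matches, namely a FOXO core at −209, CRE half-sites at −192 and −110, the E2F letters at −142, a CCAAT box at −87 and a TATA box at −33. The downstream TOB1 window held a CCAAT box at −186 and a CRE half-site at −87. BTG3, TOB2 and the upstream TOB1 window held none of the motifs. Of 35116 promoter windows of that length, 34.6% held a CCAAT box, 24.6% a CRE half-site and 8.69% both. The FOXO core was in 3.42%, the E2F letters in 1.63%, the TATA box in 11.5%, the E-box in 7.26% and the p53 half-site in 6.63%. No window of the family held the E-box or the p53 half-site, which says only that these letters are not in these windows.

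BTG2 (ENSG00000159388, chr1:203305491-203309602 on GRCh38, plus strand) stood out in the combined library. It measured 12.1 FPKM in vehicle, 10.6 in histidine, 12.8 in 6-MP and 72.4 in the combined library, from 478, 451, 540 and 2574 reads. The exact Poisson 95% interval of the combined value, 69.6 to 75.2 FPKM, was far above those of the other 3 libraries, which together ran from 9.61 to 13.9 FPKM. Among the 12750 genes above the mean limit of 1 FPKM, BTG2 moved from rank 3821 by level in vehicle to rank 416 in the combined library. In log2(FPKM + 1), where the differences of low genes come out smaller, the combined library was 2.48 higher than vehicle, 2.67 higher than histidine and 2.41 higher than 6-MP. The ratio of reads per library total to vehicle was 5.98-fold (exact Clopper-Pearson 95% interval 5.42 to 6.60). These intervals cover counting error only and compare libraries, not treatments. In the difference from vehicle BTG2 was rank 14 of the 12750 genes.

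BTG1 (ENSG00000133639, chr12:92140278-92145846, minus strand) had the next largest difference. It measured 6.79 FPKM in vehicle, 6.65 in histidine, 7.17 in 6-MP and 14.3 in the combined library, from 472, 500, 534 and 896 reads. The first 3 libraries had overlapping counting intervals, and the combined library was above all of them. Its log2(FPKM + 1) was 0.97 higher than vehicle, 1.00 higher than histidine and 0.91 higher than 6-MP, and its reads were 2.11-fold those of vehicle (95% interval 1.88 to 2.36). BTG1 thus lay at the threshold of 1 used here, just past it against histidine and just short of it against vehicle and 6-MP. BTG1 shares 2637 bases of its span with LINC01619 on the same strand, which had 22, 18, 28 and 44 reads in the order vehicle, histidine, 6-MP and both. It also overlaps an antisense lncRNA (ENSG00000245904) by 274 bases, with 22, 13, 24 and 54 reads. Both were higher in the combined library, as BTG1 was, with few reads beside its own. How overlapping reads were assigned is not given in the sources used here. The processed pseudogene BTG1P1 had 3 reads in the histidine library and 0 in the others.

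**Figure D1:**
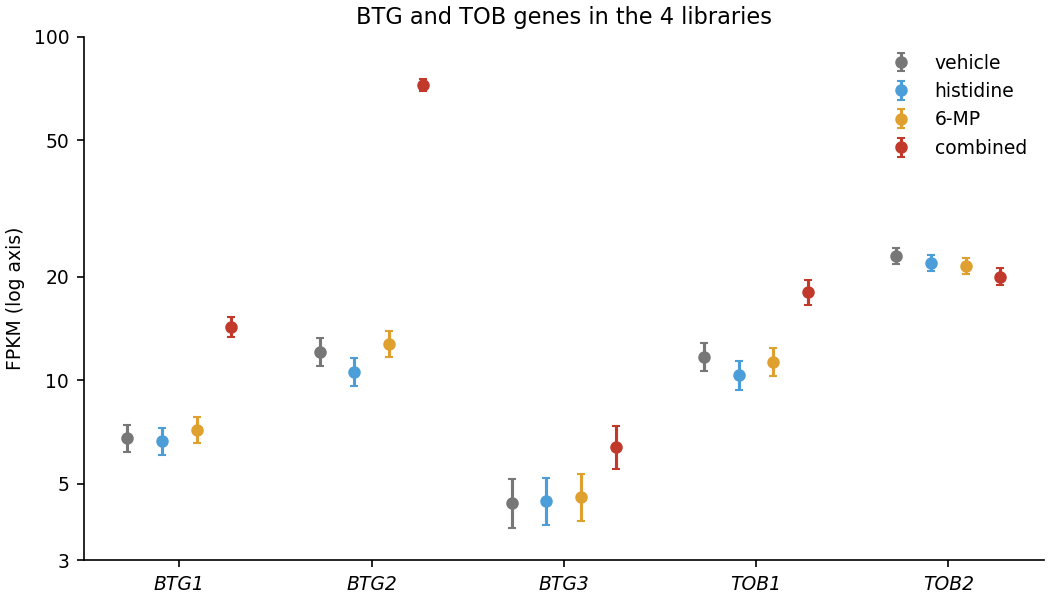
FPKM (vertical log axis) of each BTG and TOB gene in the vehicle, histidine, 6-MP and combined libraries (1 point per library), with bars for the exact Poisson 95% counting interval. BTG2 reaches 72.4 FPKM in the combined library against at most 12.8 in the others, while the 4 values of TOB2 stay between 20.1 and 23.1.

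TOB1 (ENSG00000141232, chr17:50862223-50867978, minus strand) was also highest in the combined library. It measured 11.7 FPKM in vehicle, 10.3 in histidine, 11.4 in 6-MP and 18.1 in the combined library, from 423, 404, 439 and 587 reads. The combined value had a counting interval of 16.6 to 19.6 FPKM, above the intervals of the other 3. Its log2(FPKM + 1) was 0.58 higher than vehicle, 0.75 higher than histidine and 0.63 higher than 6-MP, and the read ratio to vehicle was 1.54 (95% interval 1.36 to 1.75). Under median-ratio scaling the difference from vehicle was 0.35 and that from 6-MP 0.40. TOB1-AS1, on the other strand, overlaps it by 1300 bases and had 36, 31, 19 and 56 reads. The antisense gene was also highest in the combined library.

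BTG3 (ENSG00000154640, chr21:17593653-17612945, minus strand) was the lowest member in every library. Its FPKM was 4.40, 4.46, 4.58 and 6.39 in the order vehicle, histidine, 6-MP and both, from 145, 159, 162 and 190 reads. The combined value was again the highest, with a counting interval of 5.52 to 7.37 FPKM that lies above those of vehicle, histidine and 6-MP. Its log2(FPKM + 1) was 0.45, 0.44 and 0.41 higher than vehicle, histidine and 6-MP, and the read ratio to vehicle was 1.45 (95% interval 1.17 to 1.82). Under median-ratio scaling the 3 differences were 0.25, 0.26 and 0.20. BTG3-AS1 on the opposite strand had at most 3 reads in a library.

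TOB2 (ENSG00000183864, chr22:41433494-41446801, minus strand) differed from the other 4. It measured 23.1 FPKM in vehicle, 22.0 in histidine, 21.5 in 6-MP and 20.1 in the combined library, from 1433, 1476, 1434 and 1123 reads. The combined library was the lowest, although its counting interval, 18.9 to 21.3 FPKM, overlapped those of histidine and 6-MP. Its log2(FPKM + 1) differed from vehicle by −0.19, from histidine by −0.12 and from 6-MP by −0.098. The read ratio to vehicle was 0.870 (95% interval 0.804 to 0.941). Despite the overlap, the ratio to histidine was 0.913, and its 95% interval of 0.844 to 0.988 excluded 1. The ratio to 6-MP was 0.931, and its interval of 0.861 to 1.01 held 1. Under median-ratio scaling the differences from vehicle, histidine and 6-MP were −0.42, −0.32 and −0.32.

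**Figure D2:**
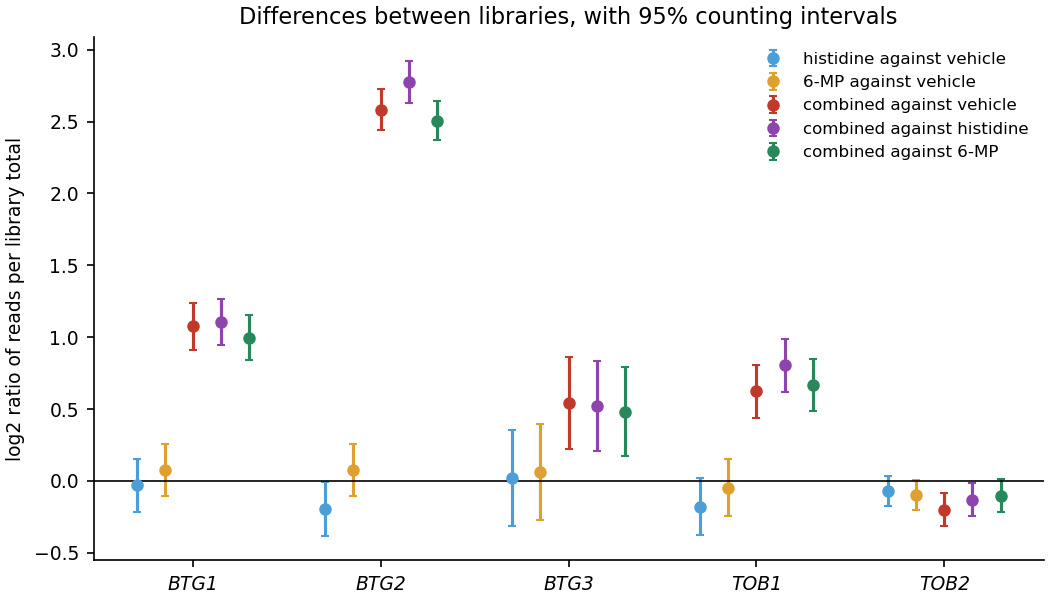
Log2 ratio of reads per library total (vertical axis) for each gene in 5 comparisons, 1 point each, with bars for the exact 95% counting interval and a line at 0 for no difference. The combined library lies above the others for BTG1, BTG2, BTG3 and TOB1, with BTG2 at 2.50 to 2.78, whereas TOB2 lies slightly below 0.

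The order of the members changed with BTG2. In vehicle TOB2 was highest, then BTG2 and TOB1, whose counting intervals overlapped, then BTG1 and BTG3. In the combined library BTG2 came first, followed by TOB2 and TOB1, whose intervals overlapped (18.9 to 21.3 and 16.6 to 19.6 FPKM), and by BTG1 and BTG3. The family summed to 58.1 FPKM in vehicle, 54.0 in histidine, 57.4 in 6-MP and 131.2 in the combined library. Without BTG2 the sums were 46.0, 43.4, 44.6 and 58.8. BTG2 made up 20.9% of the family sum in vehicle and 55.2% in the combined library, and TOB2 made up 39.7% and 15.3%.

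**Figure D3:**
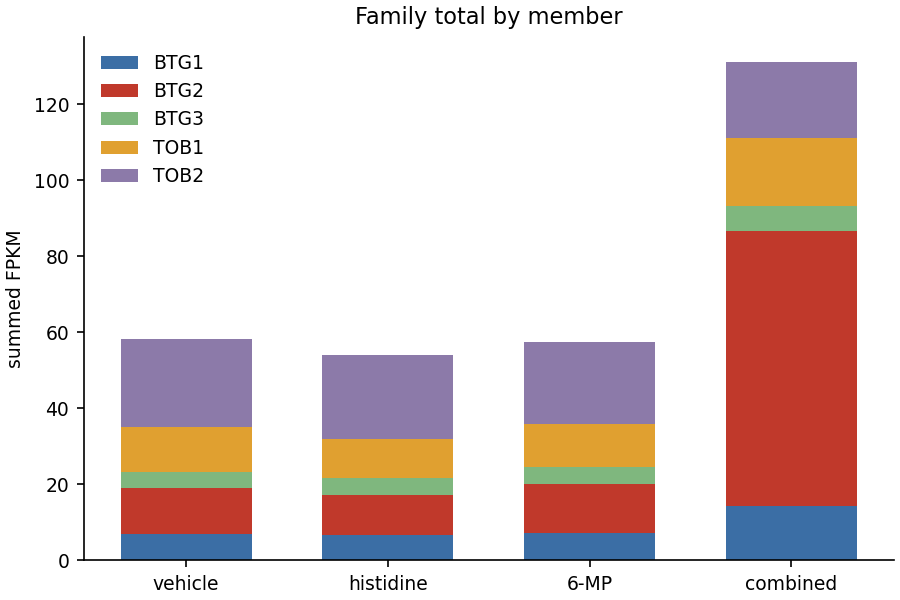
Stacked bars of FPKM (vertical axis from 0) of the 5 genes in each of the 4 libraries, with 1 color per gene. The family total is 131.2 in the combined library against 54.0 to 58.1 in the others, and BTG2 forms the largest block there.

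With either agent alone, no member reached a log2 difference of 1. The largest departure from vehicle was that of BTG2 with histidine, −0.18, and with 6-MP that of TOB2, −0.095. Of all 12750 genes, 1.33% reached the threshold in either direction between histidine and vehicle, 1.18% between 6-MP and vehicle and 1.32% between the single agents. The read ratio of BTG2 with histidine to vehicle was 0.872, and its 95% interval of 0.765 to 0.994 excluded 1. For the other members the intervals of both single agents held 1. BTG2 was also 1.21-fold higher with 6-MP than with histidine (95% interval 1.06 to 1.37).

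Against vehicle, 1 of the 5 members, BTG2, was at least 1 higher in the combined library, as were 5.01% of all genes. None was at least 1 lower, as were 1.51% of all genes. BTG2 alone was also at least 1.5 higher, a limit that 1.69% of all genes reached. At a limit of 0.5, BTG1, BTG2 and TOB1 were higher, 3 of 5, against 19.7% of all genes. Against histidine, 2 members (BTG2 and BTG1) were at least 1 higher, with 4.15% of all genes, and 3 were at least 0.5 higher, with 17.8%. Against 6-MP, 1 member (BTG2) was at least 1 higher, with 4.82% of all genes, and 3 were at least 0.5 higher, with 19.3%. No member was at least 1 lower against histidine or 6-MP, as were 1.4% and 1.2% of all genes. The 3 comparisons share the combined library and are not independent.

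The median difference over all 12750 genes was itself 0.13 for the combined library against vehicle, 0.11 against histidine and 0.13 against 6-MP. The median of the 5 members against vehicle was 0.58. Relative to the all-gene median, BTG2 was 2.35 higher than vehicle, BTG1 0.84, TOB1 0.45 and BTG3 0.32 higher, and TOB2 was at −0.32. By percentile of the difference among all genes, BTG2 stood at 99.9, BTG1 at 94.7, TOB1 at 84.1, BTG3 at 77.6 and TOB2 at 20.9. All but BTG2 thus lay within the middle of the distribution that runs from the 5th percentile, −0.61, to the 95th, 1.00.

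**Figure D4:**
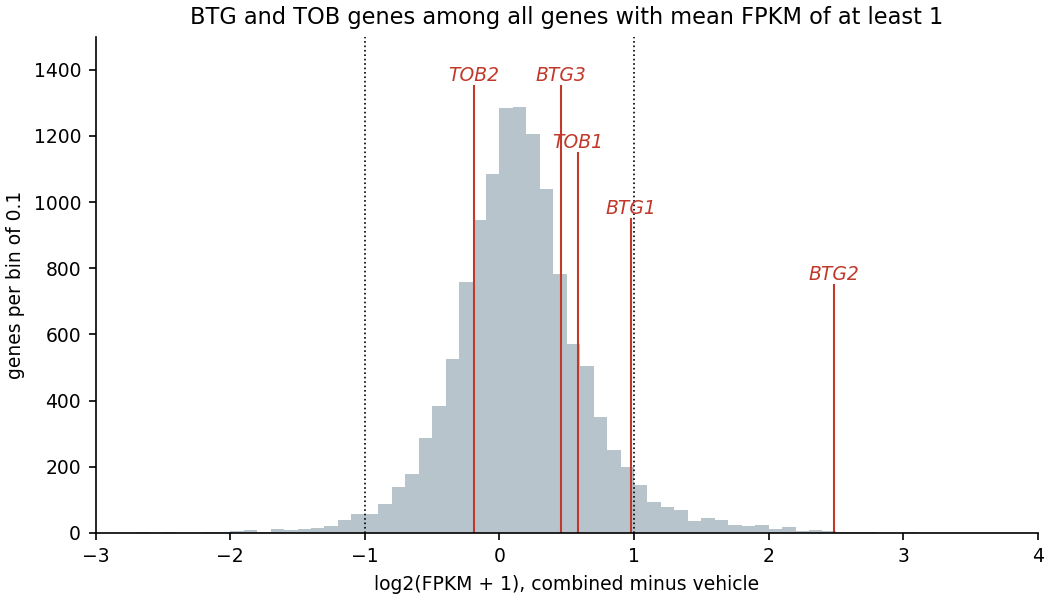
Histogram of the difference in log2(FPKM + 1), combined minus vehicle (horizontal axis, bins of 0.1), over 12750 genes, with the number of genes on the vertical axis, red lines at the 5 members and dotted lines at −1 and 1. BTG2 at 2.48 lies in the far right tail, and TOB2, BTG3, TOB1 and BTG1 lie between the dotted lines.

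The departure from additivity, the part of the combined library's log2(FPKM + 1) difference from vehicle that the summed differences of the single agents leave over, was 2.60 for BTG2, 0.93 for BTG1, 0.79 for TOB1, 0.39 for BTG3 and −0.030 for TOB2. Under median-ratio scaling the values of BTG3 and TOB2 were 0.22 and −0.22. The median over all genes was 0.11. Of the 5 members, 1 had a departure of at least 1, as did 4.85% of all genes.

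Genes with the most similar pattern were found for each member among 6731 other protein-coding genes of at least 5 FPKM on average, by the distance between the 4 log2(FPKM + 1) values, each gene centred on its own mean. The nearest to BTG2 were TP53INP1 (distance 0.138), ITGAM (0.285) and BBC3 (0.298). TP53INP1 and BBC3, which encodes the proapoptotic protein PUMA, are p53 targets, and ITGAM encodes an integrin of myeloid cells. TP53INP1 was at 2.74, 2.55, 3.14 and 18.9 FPKM in the order vehicle, histidine, 6-MP and both. All 3 genes lay at 2.06 to 3.16 FPKM in the first 3 libraries and reached the mean of 5 only through their combined values, so the limit itself let in genes that are high where BTG2 is. For BTG1 they were SERPING1 (0.0268), HLA-DPA1 (0.0461) and GOLGB1 (0.0472), which encode the C1 inhibitor, an MHC class II chain and the Golgi protein giantin. For TOB1 they were JRKL (0.0194), ZNF730 (0.0367) and KCNN4 (0.0379), the last a potassium channel. For BTG3 they were OSBPL5 (0.00650), RRM1 (0.0103) and CREBZF (0.0153), of which RRM1 is the large subunit of ribonucleotide reductase. For TOB2 they were AARS1 (0.0197), RPN2 (0.0200) and PTPRC (0.0208), with alanyl-tRNA synthetase and the leukocyte phosphatase CD45 among them. With 4 libraries, such likeness rests mostly on the single combined value.

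The counts of the lists below are for the combined library against vehicle, where 5.01% of all genes were at least 1 higher and 1.51% at least 1 lower. The lists are small, and nothing particular to them is read from the counts. Of 12 CCR4-NOT subunits, 0 were at least 1 higher or lower in the combined library than in vehicle, and their median was −0.056 against 0.13 over all genes. CNOT7, a catalytic subunit that the family binds, ran from 15.3 to 17.3 FPKM over the 4 libraries, a log2 difference of 0.061 between combined and vehicle. CNOT8, its paralog, was at 25.0, 27.2, 27.7 and 32.9 FPKM, a log2 difference from vehicle of 0.38. The extremes of the complex were CNOT10 at 0.62 and TNKS1BP1, an associated protein, at −0.73.

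Of 8 poly(A)-binding proteins and other deadenylases, 0 passed the threshold in either direction. Their median was −0.014, and 0.019 once every library was scaled to the same total (TPM). PABPC1 was at 199.7, 194.4, 205.8 and 182.2 FPKM, with the combined library lowest. PABPN1, the nuclear poly(A)-binding protein, had the highest difference, 0.42, and the deadenylase PARN the lowest, −0.30. Of 11 decapping and 5′-to-3′ decay factors, 0 passed either way, with a median of 0.14 that became −0.069 under median-ratio scaling. Their extremes were DCP1B, a decapping cofactor, at 0.60 and the helicase DDX6 at −0.36.

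RNA-binding proteins that recruit CCR4-NOT to mRNAs had 13 tested members of 18 listed, of which 1 was at least 1 higher and 0 lower. The median was 0.11, and −0.10 under median-ratio scaling. The single gene past the threshold was ZFP36L1, which binds AU-rich elements, at 15.8, 16.2, 17.6 and 33.3 FPKM and a difference of 1.03 from vehicle. Its paralog ZFP36L2 had the lowest value of the list, −0.30, at 46.9, 57.8, 58.1 and 37.8 FPKM.

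Of 8 protein arginine methyltransferases, 2 were at least 1 lower in the combined library than in vehicle, PRMT1 and PRMT3, and 0 were higher, beside 1.51% and 5.01% of all genes. Their median was −0.63. PRMT1 was at 81.3 FPKM in vehicle, 75.6 in histidine and 36.3 in the combined library, with 5584, 5616 and 2245 reads, and had 5665 reads in 6-MP. The combined library held less than the other 3, which were close to each other, and the log2 read ratio to vehicle was −1.16 (95% interval −1.24 to −1.09). PRMT2 was the highest of the list at 0.39. BTG2 was thus higher, and its partner PRMT1 lower, in the same library.

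Of 20 tested p53 target genes, 17 were at least 1 higher than vehicle and 0 lower, beside 5.01% and 1.51% of all genes, with a median of 1.47. Among them FAS, a death receptor, was under 1 FPKM in the other 3 libraries and entered the tested genes only through its combined value of 3.81 FPKM. The list, which does not hold BTG2, was known to be higher in the combined library when it was chosen. PHLDA3, an inhibitor of AKT signaling, had the highest difference, 3.07, and was at 1.34, 1.51, 1.85 and 18.6 FPKM. MDM2, the ubiquitin ligase of p53, had the lowest, 0.16, at 37.1, 34.6, 39.3 and 41.7 FPKM. BTG2, at 2.48, lay between these extremes. Its place in the list depends on the pseudocount, which shrinks the differences of low genes. On log2(FPKM + 1) PHLDA3 alone stood above it, whereas by the log2 read ratio, 2.58 for BTG2, so did PLK2 (2.91), BBC3 (2.88), TP53INP1 (2.79) and FAS (2.69), each with a 95% interval that overlaps the interval of BTG2, 2.44 to 2.72.

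Of 14 tested FOXO and quiescence-associated genes, 1 was at least 1 higher and 0 lower, beside 5.01% and 1.51% of all genes, with a median of 0.23 (0.0048 under median-ratio scaling). PIK3IP1, an inhibitor of PI3-kinase, was at 0.404, 0.390, 0.377 and 3.38 FPKM, a difference of 1.64. It entered the tested genes only through its combined value, so nothing is read from the count of 1. TXNIP had the lowest value, −0.077. Of 16 tested proliferation markers, 1 was at least 1 lower than vehicle and 0 higher, beside 1.51% and 5.01% of all genes, with a median of −0.29. CCNB1, the mitotic cyclin B1, was at 103.0, 101.9, 105.1 and 41.5 FPKM, a difference of −1.29. CCNE2, a cyclin of the G1/S transition, had the highest value, 0.92.

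**Figure D5:**
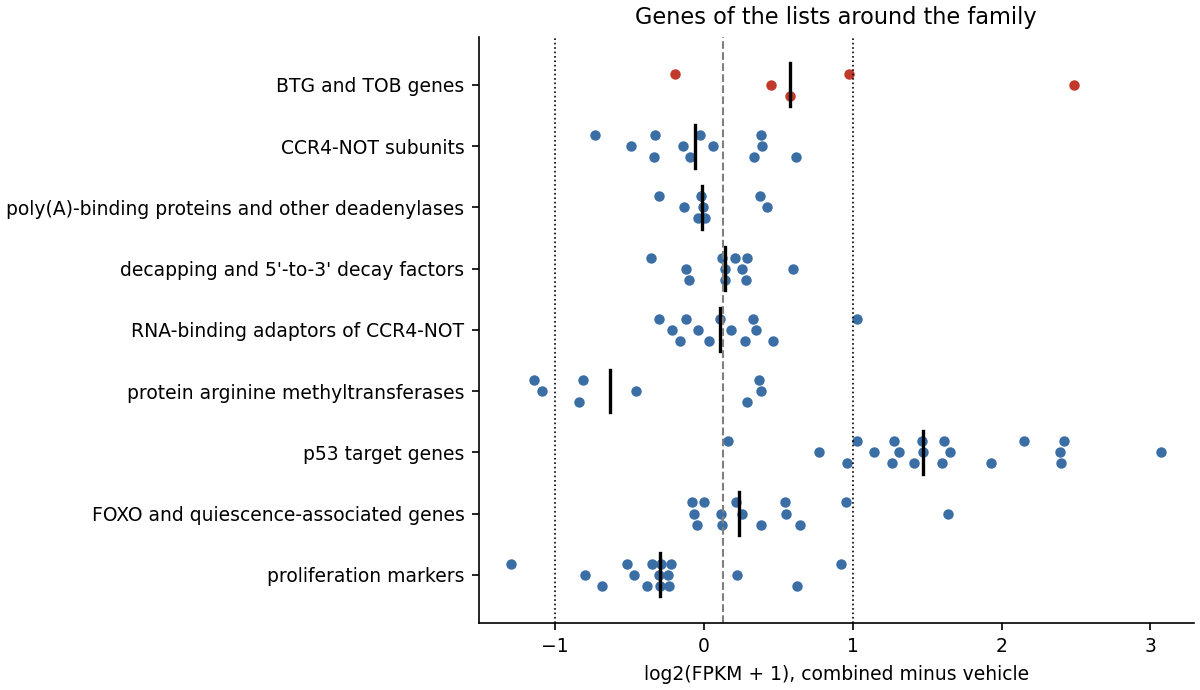
Difference in log2(FPKM + 1), combined minus vehicle (horizontal axis), for the 5 BTG and TOB genes (red) and for the tested genes of 8 lists (blue), 1 point per gene, with black bars at list medians, a dashed line at the all-gene median of 0.13 and dotted lines at −1 and 1. The p53 targets have a median of 1.47, arginine methyltransferases one of −0.63, and the CCR4-NOT subunits lie between −0.73 and 0.62.

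The members also differ in their transcripts. In GENCODE 29 the coding regions encode 171 residues for BTG1, 158 for BTG2, 296 for BTG3, 345 for TOB1 and 344 for TOB2. ATTTA, the core of AU-rich elements, occurred downstream of the stop codon 5 times in BTG1 (3802 bases), 4 times in TOB1 (757 bases), 3 times in BTG3 (440 bases), 3 times in TOB2 (2819 bases) and 2 times in BTG2 (2164 bases). Per kb these are 1.32, 5.28, 6.82, 1.06 and 0.924, beside a median of 1.68 over 9265 genes, and the higher rates rest on few matches in short stretches. The longer TATTTAT occurred 2 times in BTG3, 1 time each in BTG1, BTG2 and TOB2 and 0 times in TOB1. Of the 9265 genes, 32.9% held it at least 1 time, and nothing particular to the family is read from these counts. Between paralogs the coding sequences were 57.8% to 71.9% identical, and the longest run shared by a pair of transcripts was 11 to 18 bases.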

How the data were processed

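Poly(A) RNA of Reh-6-MPR cells was made into libraries with a stranded mRNA kit, and the 4 libraries, 1 for each treatment, were grouped by their labels. The authors deposited FPKM values per gene with symbols, biotypes and positions. The submitters' processing notes name Trimmomatic, HISAT2, Cufflinks, HTSeq and the build hg38, and no versions or strand setting are given in the sources used here. FPKM depends on library composition, so abundant genes that differ shift all others.

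Reads were recovered from the deposited FPKM, since each value is a whole number of reads divided by gene length and library total. Reads of the 5 members came out within 2.3e-07 of whole numbers. Clopper-Pearson and Poisson intervals at 95% cover counting error only. Differences were taken on log2(FPKM + 1) for the 12750 genes averaging 1 FPKM or more and called at an absolute value of 1. The authors' DESeq2 test could not be fitted without replicates, and no test was made. Percentiles and ranks are over the 12750 genes.

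The members, the 13 gene lists and the rule for named genes were chosen with earlier results of these data known. The rule names all members, the 3 nearest genes of each by pattern, the highest and lowest gene of each list against vehicle, and CNOT7, CNOT8, PABPC1 and PRMT1. PRMT3, FAS, PLK2, cell type markers and genes overlapping a member were named after their values were seen. Alternatives were a pseudocount of 0.1, median-ratio and TPM scaling, read ratios, limits of 0.5 and 1.5, protein-coding genes alone, no filter on level and a mean limit of 5 FPKM. Median-ratio scaling over the tested genes was chosen after seeing the data. Lengths and transcripts came from GENCODE 29 (28905 genes matched) and promoters from RefSeq. Scripts were tested on simulated data. Intervals were computed with scipy 1.17.1 and the rest with numpy 2.4.6 and pandas 2.3.3 under Python 3.11.15, and plots were drawn with matplotlib 3.10.9.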

Additional observations from a re-analysis of the deposited data

Results flagged for a closer look

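For 3 members, histidine went with a lower level in the absence of 6-MP and with a higher level in its presence. The share of all genes with such a change of sign was not computed, so nothing is read from the count of 3. The all-gene medians of these differences were 0.015 for histidine against vehicle and 0.13 for the combined library against 6-MP. BTG2 was at −0.18 on the log2(FPKM + 1) scale for histidine against vehicle and at 2.41 for the combined library against 6-MP, a departure from additivity of 2.60. BTG1 was at −0.026 and 0.91, a departure of 0.93. TOB1 was at −0.16 and 0.63, and for 6-MP at −0.043 without and 0.75 with histidine, a departure of 0.79. Each value rests on 1 library per treatment, and the difference was not tested. Of the 3 values without 6-MP, the counting interval excluded no difference for BTG2 only. The median departure over all genes was 0.11.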

How the results depend on the processing

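No paired analysis was possible because the 4 treatments have 1 library each, and for the same reason no replicate could be left out. Of 175 member values recomputed under 5 alternatives, 157 shifted by at most the mean arm of their 95% counting interval and 18 by more. An arm runs from the read ratio to an end of its interval. A value among the 157 can still lie outside the interval. BTG1 against vehicle, for example, was at 0.83 with median-ratio scaling over tested genes, beside an interval of 0.91 to 1.24. Of the 157, 3 changed sign, namely BTG3 for histidine against vehicle (−0.016 with median-ratio scaling, −0.0037 over tested genes) and TOB2 for 6-MP against histidine (0.0038). Median-ratio scaling over all genes above 0 raised the factor of the combined library by 0.24 (log2) over vehicle, and over tested genes by 0.16. Against vehicle, histidine and 6-MP, the first gave 2.25, 2.47 and 2.19 for BTG2, 0.75, 0.81 and 0.69 for BTG1, 0.35, 0.56 and 0.40 for TOB1, 0.25, 0.26 and 0.20 for BTG3, and −0.42, −0.32 and −0.32 for TOB2, whose departure from additivity became −0.22. Over tested genes BTG2 was at 2.33 against vehicle and 2.27 against 6-MP, and TOB2 was at −0.34, −0.25 and −0.24. Against vehicle, 2 members were past the limit with a pseudocount of 0.1, beside 11.9% of all genes in either direction. With TPM scaling 2 members were past it, beside 17.3%. At a limit of 0.5, 3 members were past it, all higher, beside 19.7% of all genes at least 0.5 higher. Against histidine, 1 member was past the limit under each median-ratio scaling, beside 5.04% and, over tested genes, 5.11% of all genes. At a limit of 1.5, 1 member was past it, beside 1.76%. Against 6-MP, 3 members were past a limit of 0.5, beside 19.3% of all genes at least 0.5 higher. In all these settings BTG2 was past the limit against each library. Of the list medians against vehicle, 3 changed sign, to −0.069 (decapping factors) and −0.10 (RNA-binding adaptors) with median-ratio scaling and to 0.019 (poly(A)-binding proteins and other deadenylases) with TPM scaling. The share of all genes past the limit in either direction against vehicle, 6.53%, ran from 2.09% (limit of 1.5) to 17.3% (TPM scaling). TPM values are larger than FPKM, so the pseudocount weighs less and more low genes pass the mean limit of 1. The 17.3% is thus over a wider set of genes. Depth limited BTG3 most, at 145 to 190 reads.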
